A study of Mus musculus with 6 samples.

Results

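Glycerol and triglyceride synthesis was followed through 9 genes in the hearts of wild type (WT) and TG-PKR1 mice. The genes were Gpd1, Gpd2, Aqp7, Gpam, Agpat2, Lpin1, Dgat1, Dgat2 and Pnpla3, and their members were all array probes, other than control probes, that carried one of these names. This gave 9 of 28478 gene names and 19 of the 41174 probes on the array, and all 19 were among the 20000 probes with the highest median signal. WT and TG-PKR1 hearts came from 12-week-old male mice, with 3 hearts in each group and 1 array per heart. TG-PKR1 mice carry a transgene for the prokineticin receptor PKR1 under the alpha myosin heavy chain promoter, which drives it in cardiomyocytes, and per the methods of the study mice were kept on a C57BL6/J background. Total RNA of the whole heart was labelled with Cy3 and hybridized to single-color Agilent arrays. The question asked of these genes was whether the genes around glycerol and glycerol 3-phosphate (Gpd1, Gpd2 and Aqp7, called the supply genes) and the acylation genes (Gpam, Agpat2, Lpin1, Dgat1 and Dgat2) differed alike between the groups.

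A triglyceride is built on glycerol 3-phosphate. This backbone can be made from a glycolytic intermediate by the cytosolic dehydrogenase Gpd1, while glycerol itself crosses membranes through the channel Aqp7. Fatty acids are then added one at a time by acyltransferases, a phosphatase removes the phosphate, and the last acyl group closes the triglyceride. Adipocytes store triglyceride in bulk, whereas cardiomyocytes mostly burn fatty acids and keep small lipid droplets.

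Signals are given as normalized log2 fluorescence, a scale on which 1 unit is a doubling, and a difference is always TG-PKR1 minus WT. Levels of different probes are not compared, since each probe binds its target with its own strength. The hearts are called WT 1 to 3 and TG-PKR1 1 to 3, and these numbers pair no WT heart with a TG-PKR1 heart. WT 1, TG-PKR1 2 and TG-PKR1 3 had been scanned with an extended range and WT 2, WT 3 and TG-PKR1 1 once at a single gain. Upper-quartile signal (the 75th percentile) over local background was 11.4 to 14.1 on the extended-range arrays and 2.08 to 3.97 on the single-scan arrays, with WT 2 the dimmest. Between 19650 and 23570 probes were well above background in WT hearts and between 21089 and 24920 in TG-PKR1 hearts. PKR1 itself is encoded by Prokr1, whose 1 probe was well above background on 0 of 6 arrays, so it did not check the genotypes. Cardiomyocyte markers were well above background on every array (8 of 8 genes), and liver markers were not (0 of 4 genes on all arrays).

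Promoters are shown for the genes that the RefSeq table held, which were supply genes, acylation genes and Pnpla3, so that they can be read beside each other. The table (GRCm38.p6) held 9 windows for 6 of the 9 genes and none for Gpd1, Dgat1 and Dgat2. Each window was read over the 250 bases before the transcription start. Only 1 window per gene is printed, so 6 of the 9. For Gpd2, Aqp7 and Gpam, which had more than 1 window, the printed window held more matches than the other. Capitals mark matches, on either strand, to AGGTCA (the nuclear receptor half-site), CCAAT or GGGCGG (the GC box).
Gpd2 (second start), chr2:57238132-57238381, plus strand: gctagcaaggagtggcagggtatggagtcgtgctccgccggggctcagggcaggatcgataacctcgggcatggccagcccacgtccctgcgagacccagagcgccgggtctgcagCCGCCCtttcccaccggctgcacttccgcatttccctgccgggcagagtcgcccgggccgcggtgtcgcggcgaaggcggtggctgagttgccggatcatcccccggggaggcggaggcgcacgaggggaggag
Aqp7 (second start), chr4:41047963-41048212, minus strand: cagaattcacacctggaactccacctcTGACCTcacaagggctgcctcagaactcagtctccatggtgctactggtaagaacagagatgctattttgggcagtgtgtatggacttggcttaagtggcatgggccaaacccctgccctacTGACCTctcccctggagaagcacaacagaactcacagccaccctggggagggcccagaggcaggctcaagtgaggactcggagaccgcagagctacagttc
Pnpla3, chr15:84167566-84167815, plus strand: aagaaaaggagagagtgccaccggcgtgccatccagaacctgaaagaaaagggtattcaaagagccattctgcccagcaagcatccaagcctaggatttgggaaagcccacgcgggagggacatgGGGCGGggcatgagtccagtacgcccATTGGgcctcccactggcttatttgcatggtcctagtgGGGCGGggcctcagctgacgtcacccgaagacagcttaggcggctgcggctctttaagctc
Gpam (second start), chr19:55099478-55099727, minus strand: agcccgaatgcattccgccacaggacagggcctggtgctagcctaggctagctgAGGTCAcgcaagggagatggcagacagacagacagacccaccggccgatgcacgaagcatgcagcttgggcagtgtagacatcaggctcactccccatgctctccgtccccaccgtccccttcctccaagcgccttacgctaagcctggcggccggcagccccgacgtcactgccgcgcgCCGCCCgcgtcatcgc
Agpat2, chr2:26604418-26604667, minus strand: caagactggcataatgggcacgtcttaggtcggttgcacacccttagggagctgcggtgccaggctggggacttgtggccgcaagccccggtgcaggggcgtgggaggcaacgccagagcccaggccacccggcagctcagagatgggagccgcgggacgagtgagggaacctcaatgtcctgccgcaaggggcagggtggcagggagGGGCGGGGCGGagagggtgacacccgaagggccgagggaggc
Lpin1, chr12:16610967-16611216, minus strand: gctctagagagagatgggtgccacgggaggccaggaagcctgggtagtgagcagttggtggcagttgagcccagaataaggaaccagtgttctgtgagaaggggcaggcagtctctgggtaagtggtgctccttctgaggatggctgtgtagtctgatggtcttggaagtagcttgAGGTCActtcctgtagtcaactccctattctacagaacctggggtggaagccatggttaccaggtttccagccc

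The half-site AGGTCA was in 4 of the 9 windows. These were both windows of Aqp7, which overlap by 76 bases and share 1 of their matches, the second window of Gpam and the window of Lpin1. Of all 32851 windows in the table, 14.0% held it. GGGCGG was in 4 windows, those of Gpd2 (second start), Gpam (second start), Agpat2 and Pnpla3, against 32.7% of all windows. The 2 matches in Agpat2 overlap each other. CCAAT was in 2 windows, those of Gpam (first start) and Pnpla3, against 33.8% of all. The direct repeat AGGTCANAGGTCA, which contains the half-site, the E-box CACGTG and TATAAA were in 0 of the 9 windows, and in 0.0335%, 6.02% and 12.4% of all windows. Matches occurred in supply and acylation genes, and a match is a description of the letters only.

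Gpd1 fell in TG-PKR1 hearts to 25.2% of its WT level by its bright probe, and it was the one member gene past the threshold. Gpd1 is the cytosolic glycerol 3-phosphate dehydrogenase, which makes glycerol 3-phosphate from dihydroxyacetone phosphate. Its bright probe (A_52_P16419, chr15:99552937-99552996 of mm8) read 15.40, 14.82 and 15.32 in WT hearts 1 to 3. It read 13.54, 13.08 and 12.95 in TG-PKR1 hearts 1 to 3. Every TG-PKR1 heart lay more than 1 log2 unit below every WT heart. The difference was -1.99 (SE 0.22, 95% interval -2.49 to -1.49, n = 3 and 3), with an adjusted p of 0.0339 by limma over 20000 probes. The same threshold was passed by 19 probes lower in TG-PKR1, which is 0.095% of those tested, and by 0 probes higher. Of all 20000 probes, 143 had an unadjusted limma p under 0.05 in the higher direction. The exact permutation p was 0.1, the smallest that 3 against 3 hearts can give. On the extended-range arrays the signal of this probe came from the low-gain scan, scaled up by the scanner software, and no array was saturated. The call was lost under several other settings, including each removal of a heart other than WT 2 (adjusted p 0.0694 to 0.183 by limma), while over the 18 settings that used both scan modes the difference stayed between -2.17 and -1.79. Within 1 scan mode or slide it was -2.38, -1.53 and -1.28, as set out with the scan modes.

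The other Gpd1 probe was dimmer and gave a smaller difference. This probe (A_51_P293853, chr15:99550573-99551260, a span of 688 bases where most member probes span 60) read 8.63, 7.44 and 7.55 in WT hearts. It read 7.37, 6.82 and 6.77 in TG-PKR1 hearts. The groups did not overlap, but TG-PKR1 1 lay just below WT 2 and WT 1 stood well above the others. The difference was -0.88 (SE 0.32, limma adjusted p 1.0), or 54.3% of WT, and -0.50 without WT 1. On WT 2 the unnormalized signal of this probe was 61 over a local background of 38, and on TG-PKR1 1 it was 71.5 over 39.5. With the background-subtracted processed signal the difference was -1.31.

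Gpd2, the mitochondrial glycerol 3-phosphate dehydrogenase, oxidizes glycerol 3-phosphate back to dihydroxyacetone phosphate and passes the electrons to the respiratory chain. It is counted with the supply genes although it uses glycerol 3-phosphate and Gpd1 makes it. Its first probe (A_51_P342481, chr2:57179484-57179649) read 10.48, 9.31 and 10.28 in WT hearts and 8.86, 8.63 and 8.47 in TG-PKR1 hearts. WT 2 was the lowest WT heart here and still lay above TG-PKR1 1. The difference was -1.37 (SE 0.29, 95% interval -2.04 to -0.70), or 38.7% of WT, and did not pass the threshold (limma adjusted p 0.369). Without WT 2 it was -1.72, with an adjusted p of 0.0408 by limma, the only one of the 18 other settings in which a second member gene passed.

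The second Gpd2 probe (A_52_P373938, chr2:57185596-57185655) read 9.78, 8.22 and 8.96 in WT hearts and 8.05, 7.67 and 8.01 in TG-PKR1 hearts. WT hearts spread over more than 1 log2 unit on this probe, while TG-PKR1 hearts lay close together below all of them. The difference was -1.08 (SE 0.35, limma adjusted p 1.0), or 47.4% of WT, and -0.68 without WT 1.

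Aqp7 is an aquaglyceroporin, a channel that lets glycerol pass, and is best known from adipocytes. Its 2 probes overlap on the genome (A_51_P378063, chr4:41222859-41222918, and A_52_P403405, chr4:41222881-41222940), so they are not separate measurements of the transcript. The first read 7.87, 7.83 and 8.10 in WT hearts and 7.41, 7.64 and 7.60 in TG-PKR1 hearts. The second read 7.79, 7.53 and 7.79 in WT hearts and 7.26, 7.39 and 7.10 in TG-PKR1 hearts. On both, every TG-PKR1 heart lay below every WT heart by a narrow margin. The differences were -0.38 (SE 0.15) and -0.45 (SE 0.16), or 76.6% and 73.2% of WT, with limma adjusted p 1.0 for each. With the background-subtracted processed signal they were -0.66 and -0.83. Before normalization the first probe read 66 over a local background of 39.5 on WT 2 and 66.5 over 37 on TG-PKR1 1. The second read 59 over 38 and 63.5 over 39. The order of these 2 hearts on Aqp7 thus rests on the normalization.

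**Figure D1:**
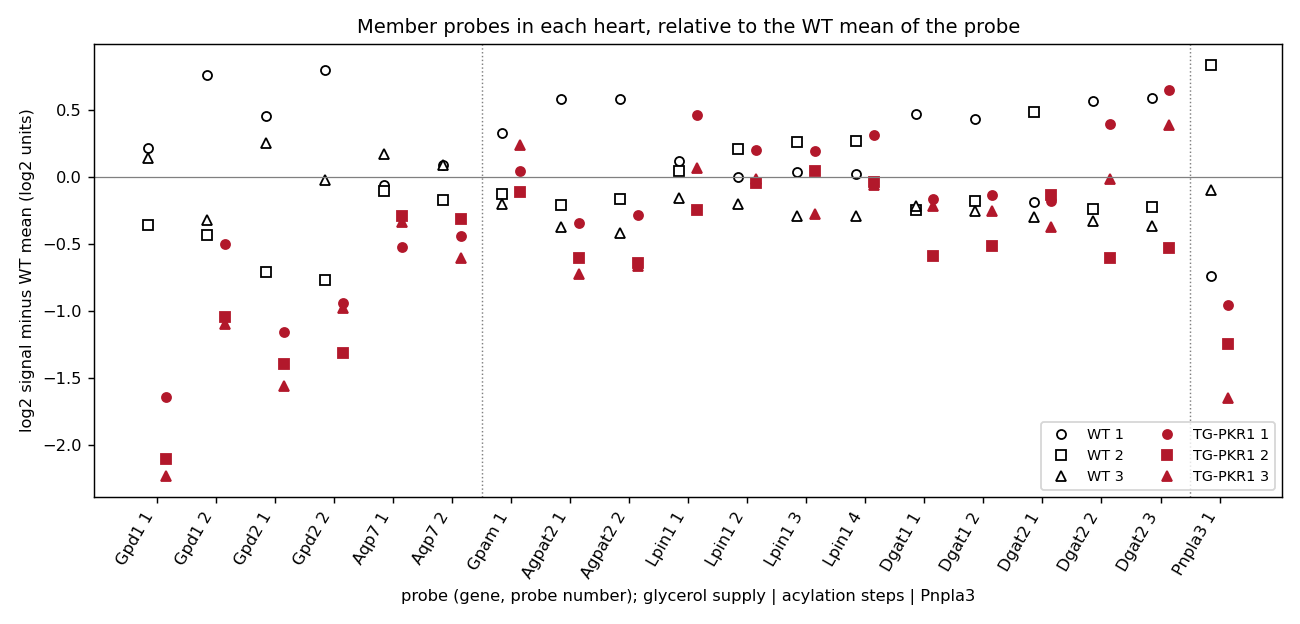
Each point is 1 heart on 1 member probe, as the normalized log2 signal minus the WT mean of that probe (log2 units), with open symbols for WT and filled symbols for TG-PKR1. All 6 probes of Gpd1, Gpd2 and Aqp7 and the probe of Pnpla3 show TG-PKR1 hearts below WT hearts without overlap, and the 12 probes of the acylation genes overlap.

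Among the acylation genes no probe passed the threshold and the groups overlapped on all 12 probes. Gpam is the mitochondrial glycerol 3-phosphate acyltransferase, which adds the first fatty acid. Its probe (A_52_P11388, chr19:55124163-55124222) read 7.51, 7.05 and 6.97 in WT hearts and 7.22, 7.06 and 7.42 in TG-PKR1 hearts. The groups lay on top of each other, with a difference of 0.05 (SE 0.19, 95% interval -0.38 to 0.49, limma adjusted p 1.0). The sign of this small difference turned under some settings, with -0.18 when arrays were scaled to their 75th percentile. The probe was dim on the single-scan arrays. Its unnormalized signal over local background was 52 over 39 on WT 2, 70 over 39 on WT 3 and 67 over 41 on TG-PKR1 1. With the background-subtracted processed signal the Gpam difference was 0.11.

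Agpat2 adds the second fatty acid and gives phosphatidate. Its loss causes lipodystrophy, a near absence of adipose tissue. Its first probe (A_51_P238565, chr2:26418117-26418176) read 10.54, 9.76 and 9.59 in WT hearts and 9.61, 9.36 and 9.23 in TG-PKR1 hearts. WT 1 stood apart as the highest heart, and TG-PKR1 1 lay just above WT 3. The difference was -0.56 (SE 0.25, 95% interval -1.14 to 0.02, limma adjusted p 1.0), and -0.27 without WT 1. The second probe (A_51_P238563) showed the same order of WT hearts, with a difference of -0.53 (SE 0.26), and -0.24 without WT 1.

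Lpin1, a phosphatidate phosphatase, removes the phosphate to give diacylglycerol, and it also acts as a transcriptional coactivator. Its first probe (A_51_P394984, chr12:16561989-16562047) read 12.23, 12.16 and 11.96 in WT hearts and 12.58, 11.87 and 12.19 in TG-PKR1 hearts. TG-PKR1 hearts held both the highest and the lowest value. The difference was 0.09 (SE 0.20, 95% interval -0.37 to 0.55). The other 3 probes (A_52_P483101, A_52_P483104 and A_52_P483105), which lie within chr12:16562803-16562942, gave differences of 0.04, -0.01 and 0.07, each with a limma adjusted p of 1.0. Over the 18 settings that used both scan modes their signs turned in some, in a range from -0.16 to 0.21, and within the single-scan arrays they were 0.20, 0.21 and 0.32.

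Dgat1 and Dgat2 are unrelated acyltransferases that both add the last fatty acid. The first Dgat1 probe (A_52_P456134, chr15:76329953-76330099) read 9.52, 8.80 and 8.84 in WT hearts and 8.89, 8.47 and 8.84 in TG-PKR1 hearts. As for Agpat2, WT 1 was the highest heart, and the remaining WT hearts lay within the range of TG-PKR1 hearts. The difference was -0.32 (SE 0.23, limma adjusted p 1.0), and the second probe (A_51_P510059) gave -0.30 (SE 0.21). Without WT 1 these were -0.090 and -0.083, and without TG-PKR1 2 they were both -0.19.

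The brightest Dgat2 probe (A_52_P592909, chr7:99028897-99028956) read 15.35, 16.02 and 15.23 in WT hearts and 15.35, 15.40 and 15.16 in TG-PKR1 hearts. WT 2 was the highest heart and the remaining hearts lay close together. The difference was -0.23 (SE 0.22, limma adjusted p 1.0), and 0.01 without WT 2. The other Dgat2 probes (A_51_P396003, chr7:99029653-99029712, and A_52_P359739, chr7:99029734-99029793) gave -0.08 (SE 0.31) and 0.17 (SE 0.35), so the 3 probes of Dgat2 did not share a sign. Without WT 1 the latter probes gave 0.21 and 0.46.

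Pnpla3, or adiponutrin, is a lipid droplet protein of adipose tissue and liver whose transcript follows feeding, and it was counted neither with the supply nor with the acylation genes. Its probe (A_51_P389265, chr15:84017159-84017218) read 6.66, 8.24 and 7.31 in WT hearts and 6.45, 6.16 and 5.76 in TG-PKR1 hearts. The groups did not overlap, but WT 1 and TG-PKR1 1 lay close and WT hearts spread widely. The difference was -1.28 (SE 0.37, 95% interval -2.12 to -0.44), or 41.1% of WT, with an unadjusted limma p of 0.00753 and an adjusted p of 1.0. The probe was well above background on 3 of 3 WT arrays and 2 of 3 TG-PKR1 arrays. Its size moved with the background treatment, from -0.98 with normexp to -2.78 with the processed signal, and without WT 2 it was -0.86.

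**Figure D2:**
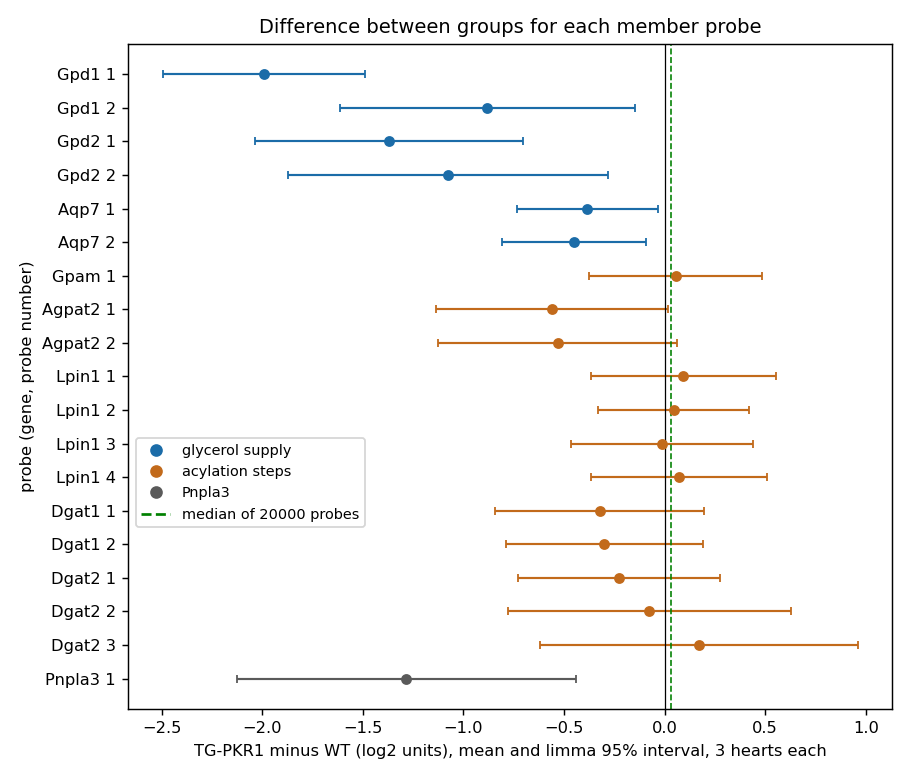
Points are the difference of TG-PKR1 minus WT for each member probe (log2 units) with its limma 95% interval, 3 hearts per group, and the dashed line is the median of all 20000 probes, 0.03. The intervals of the 6 supply probes and of Pnpla3 lie below 0, and those of the 12 acylation probes include it.

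By the brightest probe of each gene, the median difference was -1.37 over the 3 supply genes and -0.23 over the 5 acylation genes, beside 0.03 over all 20000 probes. With so few genes these medians are the values of Gpd2 and Dgat2. Size did not part the 2 sets of genes. The supply gene Aqp7 differed by -0.38 and -0.45 on its probes, and the acylation gene Agpat2 by -0.56 and -0.53. TG-PKR1 hearts lay below WT hearts without overlap on 7 of the 19 member probes, 6 of 6 for the supply and 0 of 12 for acylation. Over all probes with 6 values this share was 2.73%, and 2.68% lay above without overlap, a direction that 0 member probes showed. All 7 of these probes also had an unadjusted limma p under 0.05, as did 1.66% of all probes in that direction and 0.715% in the opposite one. The order of these background shares turned when WT 1 or TG-PKR1 2 was left out, with 296 probes lower and 762 higher without WT 1 and 579 and 621 without TG-PKR1 2, and 75th percentile scaling gave 250 and 26. The mean was lower in TG-PKR1 on 14 of the 19 probes, against 41.8% of all probes, and lower by 1 log2 unit or more on 4 of them, the bright Gpd1 probe, both Gpd2 probes and the Pnpla3 probe, against 0.455% of all probes. The probes of 1 gene share its transcript and do not count as separate genes. Overlap depends on the spread within a group as well as on size. The SD of WT hearts was 0.51 on the first Agpat2 probe and 0.15 on the first Aqp7 probe. These counts are therefore no test of whether supply and acylation genes changed unequally.

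Unequal change within a heart was tested for 4 pairs of genes by their brightest probes. Only Gpd1 and Gpam set a supply gene against an acylation gene. By the brightest probes these had the largest and the smallest absolute difference of the member genes. The Gpd1 signal minus the Gpam signal was 7.89, 7.77 and 8.35 in WT hearts and 6.32, 6.02 and 5.53 in TG-PKR1 hearts. This gap was narrower in every TG-PKR1 heart, by -2.05 (95% interval -2.59 to -1.50, exact permutation p 0.1, 0.133 after adjustment over the 4 pairs). Gpd1 minus Gpd2 differed by -0.62 (95% interval -1.05 to -0.19, exact permutation p 0.1, adjusted 0.133), again without overlap. The dimmer Gpd1 probe differed by -0.88, less than either Gpd2 probe (-1.37 and -1.08). The direction of the Gpd1 and Gpd2 gap thus depended on the Gpd1 probe used. Agpat2 minus Gpam differed by -0.61 (95% interval -1.07 to -0.16, exact permutation p 0.1, adjusted 0.133), and by -0.30 when arrays were scaled to their 75th percentile. Dgat2 minus Dgat1 differed by 0.09 (95% interval -0.66 to 0.85, exact permutation p 0.9, adjusted 0.9), and the hearts overlapped. With that scaling it was 0.30. No pair could pass a threshold of 0.05 with 3 hearts per group.

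The size of the supply differences depended on which arrays were set side by side. Within the extended-range arrays (2 TG-PKR1 hearts and 1 WT heart) the bright Gpd1 probe differed by -2.38, and within the single-scan arrays (1 TG-PKR1 heart and 2 WT hearts) by -1.53. On the 1 slide that carried both groups, TG-PKR1 1 minus WT 2 gave -1.28. For the second Gpd1 probe these values were -1.83, -0.12 and -0.07. For the first Gpd2 probe they were -1.93, -0.93 and -0.45, and for the second -1.94, -0.54 and -0.17. Gpd1, Gpd2 and Aqp7 were thus below 0 in each of these comparisons, with sizes that varied widely. The first Agpat2 probe differed by -1.24 within the extended range and -0.06 within the single scan, and the second by -1.24 and 0.0062. The Dgat1 probes differed by -0.87 and -0.82 within the extended range and by 0.065 and 0.084 within the single scan, so their sign turned. In the same order Gpam gave -0.27 and 0.21, the first Lpin1 probe -0.21 and 0.52, the brightest Dgat2 probe -0.07 and -0.27, the second -0.87 and 0.68, and the third -0.66 and 0.94. With scan mode as a block the bright Gpd1 probe differed by -1.96 (limma adjusted p 0.189). The part of scan mode in the results was not tested beyond these values.

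**Figure D3:**
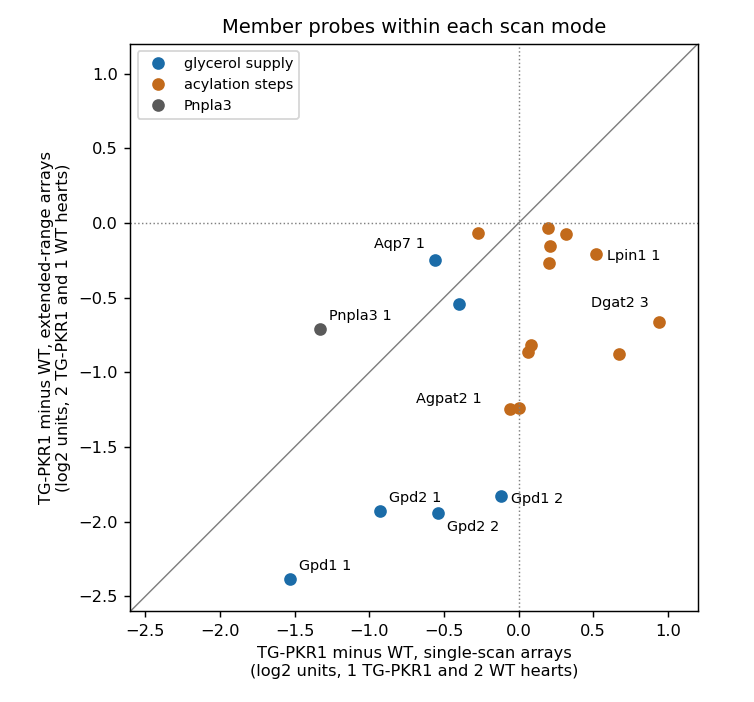
Each point is 1 member probe, with its difference of TG-PKR1 minus WT (log2 units) within the single-scan arrays on the horizontal axis and within the extended-range arrays on the vertical axis, and numbered labels name some of the probes. Gpd1, Gpd2, Aqp7 and Pnpla3 lie below 0 on both axes, while most acylation probes lie near or above 0 on the horizontal axis and below 0 on the vertical.

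The other genes of glycerolipid metabolism were taken from a list of 33 genes in 7 steps, of which 32 had a probe and 27 were among the 20000. Of these 27, 0 passed the threshold in either direction by limma, 3 had an unadjusted limma p under 0.05 in the lower direction, beside 1.66% of all probes, and 0 in the higher. The mean was lower in TG-PKR1 for 21 genes, against 41.8% of all probes, with a median difference of -0.16. By the brightest probe of each gene the groups did not overlap for 6, all lower, against 2.73% of all probes. These 6 were Gk, Gpat4, Mogat1, Pnpla2, Lipe and Mgll, and for Gk, Gpat4, Pnpla2 and Mgll other probes well above background on all arrays overlapped.

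Next to Gpd1 and Aqp7 stand the enzymes that make or use glycerol 3-phosphate and its precursors. Glycerol kinase, Gk, which makes it from glycerol, read 8.05, 7.98 and 8.13 in WT hearts and 7.86, 7.89 and 7.85 in TG-PKR1 hearts, a difference of -0.18 (SE 0.14). The TG-PKR1 hearts lay below all WT hearts by a small margin, and a second probe (A_52_P120066) gave -0.13 with overlap. The Gpd1 relative Gpd1l differed by 0.09 (SE 0.20), with overlapping hearts and -0.02 on its second probe, and the triose phosphate isomerase Tpi1 by 0.25 (SE 0.17). The phosphatase Pgp, which can release glycerol from glycerol 3-phosphate, differed by 0.04 (SE 0.30). All 4 had a limma adjusted p of 1.0. With 1 heart left out, Gpd1l ranged from -0.064 to 0.23, Tpi1 from 0.097 to 0.37 and Pgp from -0.23 to 0.24.

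Among the acyl-CoA synthetases, which activate fatty acids before they are used, Acsl5 differed by -0.64 (SE 0.33), Acsl3 by -0.42 (SE 0.19), Acsl1 by -0.17 (SE 0.20) and Acsl4 by -0.16 (SE 0.28), all with overlapping hearts. Another Acsl1 probe (A_51_P463452) gave 0.22 (SE 0.31). Acsl5 differed by -1.04 without WT 2 and by -0.41 without WT 1. Acsl1 and Acsl4 turned to 0.05 and 0.08 without WT 2, and were -0.32 and -0.27 without WT 1. Gpat4, the acyltransferase of the endoplasmic reticulum that runs beside Gpam, read 12.88, 12.74 and 12.63 in WT hearts and 12.34, 12.35 and 12.32 in TG-PKR1 hearts. On this brightest probe (A_52_P24986) the groups did not overlap, with a difference of -0.41 (SE 0.14, limma adjusted p 1.0). The other Gpat4 probes gave 0.03 (SE 0.28) and -0.11 (SE 0.31), both with overlap, so the probes of Gpat4 disagreed. Gpat3 differed by -0.09 (SE 0.21) and by 0.01 on its second probe, and Gpat2 by -0.05 (SE 0.07) in the fit over all probes, since it was not among the 20000.

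The genes listed beside Agpat2 as lysophosphatidate acyltransferases showed small differences. Agpat1 differed by -0.17, Agpat4 by -0.14, Agpat3 by -0.13 and Lclat1 by 0.09, with SE from 0.15 to 0.19 and overlapping hearts. With 1 heart left out, Agpat1 ranged from -0.29 to -0.070 and Agpat4 from -0.28 to -0.0083. Likewise Agpat3 ranged from -0.21 to -0.068 and Lclat1 from -0.041 to 0.24. A second Agpat3 probe (A_52_P523569) gave -0.24 (SE 0.15) with every TG-PKR1 heart below every WT heart, and the probes of Agpat5 gave 0.01 and 0.18 with overlap. Among the phosphatases beside Lpin1, Plpp3 differed by -0.31 (SE 0.20), Plpp1 by -0.20 (SE 0.23), Lpin2 by -0.09 (SE 0.17) and Lpin3 by -0.05 (SE 0.16). Over the removals of 1 heart, Plpp3 ranged from -0.44 to -0.14 and Plpp1 from -0.44 to -0.066. Lpin2 then ranged from -0.25 to -0.012 and Lpin3 from -0.16 to 0.035. The probes of Plpp1 did not share a sign, with 0.15 (A_52_P7937) and 0.04 (A_51_P189104) for the others. Mogat1, which makes diacylglycerol from monoacylglycerol and so needs no glycerol 3-phosphate, read 7.52, 7.01 and 6.85 in WT hearts and 6.65, 6.72 and 6.35 in TG-PKR1 hearts. TG-PKR1 hearts lay below WT hearts, with a difference of -0.55 (SE 0.21, limma adjusted p 1.0), and -0.36 without WT 1.

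Triglyceride breakdown releases the glycerol that Aqp7 carries. The lipase Pnpla2, a relative of Pnpla3, read 14.14, 13.90 and 13.84 in WT hearts and 13.53, 13.67 and 13.05 in TG-PKR1 hearts, a difference of -0.54 (SE 0.20). Its other probe (A_52_P681771) gave -0.16 (SE 0.26) with overlapping hearts. Without TG-PKR1 3 the difference of the first was -0.36. Hormone-sensitive lipase, Lipe, read 9.26, 8.11 and 8.10 in WT hearts and 8.07, 7.77 and 8.09 in TG-PKR1 hearts, a difference of -0.51 (SE 0.31). WT 1 stood far above the other hearts, WT 3 and TG-PKR1 3 were nearly equal, and without WT 1 the difference was -0.12. The other Lipe probe (A_51_P435363) gave -0.71 (SE 0.31) without overlap, with WT 1 again the highest heart. Monoacylglycerol lipase, Mgll, differed by -0.26 (SE 0.16) without overlap and by -0.15 without WT 1, while a second probe (A_52_P609778) gave -0.17 with overlap. The Pnpla2 inhibitor G0s2 differed by -0.28 (SE 0.19), with overlap, by -0.13 without TG-PKR1 1 and by -0.43 without TG-PKR1 3. Each had a limma adjusted p of 1.0.

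**Figure D4:**
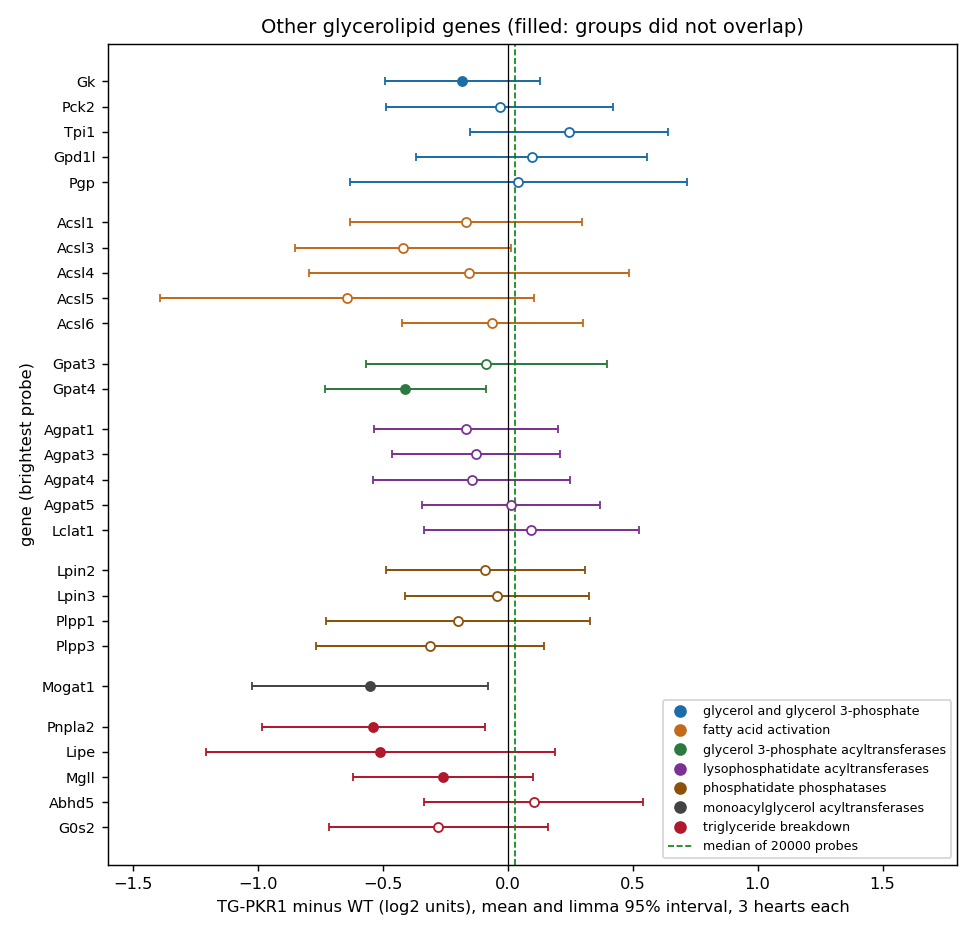
Points are the difference of TG-PKR1 minus WT (log2 units) with its limma 95% interval for the brightest probe of each of the 27 listed glycerolipid genes among the 20000, ordered by step, 3 hearts per group. Filled points are the 6 genes whose groups did not overlap, and all of them lie below 0.

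Markers of adipocytes were lower along with the supply genes. Of 10 adipocyte markers, 9 were among the 20000, and all 9 read lower in TG-PKR1 hearts without overlap, against 2.73% of all probes, with a median difference of -1.81. Adipoq, Plin1 and Cidec passed the threshold. Lipe stands in this list and among the breakdown genes above, and by its brightest probe its difference fell to -0.12 without WT 1. The summed signal of the list was 130275 to 197857 in WT hearts and 72334 to 86448 in TG-PKR1 hearts, and the leptin gene Lep was well above background on 2 of 6 arrays. Of 6 brown adipocyte markers, 5 were among the 20000, with a median difference of -1.77 and Ucp1 past the threshold. Of these 5, 4 read lower without overlap, and Prdm16 overlapped with a difference of -0.27. The summed signal of the brown list was 39836 to 68648 in WT and 10395 to 15612 in TG-PKR1 hearts. Both sums are weighted towards their brightest probes and do not describe their lists evenly. These probes were Fabp4, with a difference of -0.72, for adipocytes and Cidea, with -1.77, for the brown list. Zic1 was well above background on 1 array. The cardiomyocyte list had a median difference of 0.07 and overlapped on 8 of 8 genes. In whole hearts, fewer cells of a type and less RNA per cell cannot be told apart, and the part of the adipocyte signal in the Gpd1, Gpd2, Aqp7 and Pnpla3 differences was not tested.

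Heart by heart, the median of the supply genes relative to their WT means was 0.22, -0.36 and 0.17 in WT and -1.16, -1.39 and -1.56 in TG-PKR1. For adipocyte markers it was 0.18, 0.04 and -0.27 in WT and -1.49, -1.21 and -1.87 in TG-PKR1. For brown adipocyte markers it was 0.19, -0.18 and 0.13 in WT and -1.24, -1.59 and -1.83 in TG-PKR1. All of these lists parted the groups. The order of hearts within a group was the same for supply genes and brown adipocyte markers, and another for adipocyte markers. For the acylation genes the median was 0.33, -0.13 and -0.22 in WT and -0.17, -0.25 and -0.21 in TG-PKR1. Here WT 1 alone stood above the rest.

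**Figure D5:**
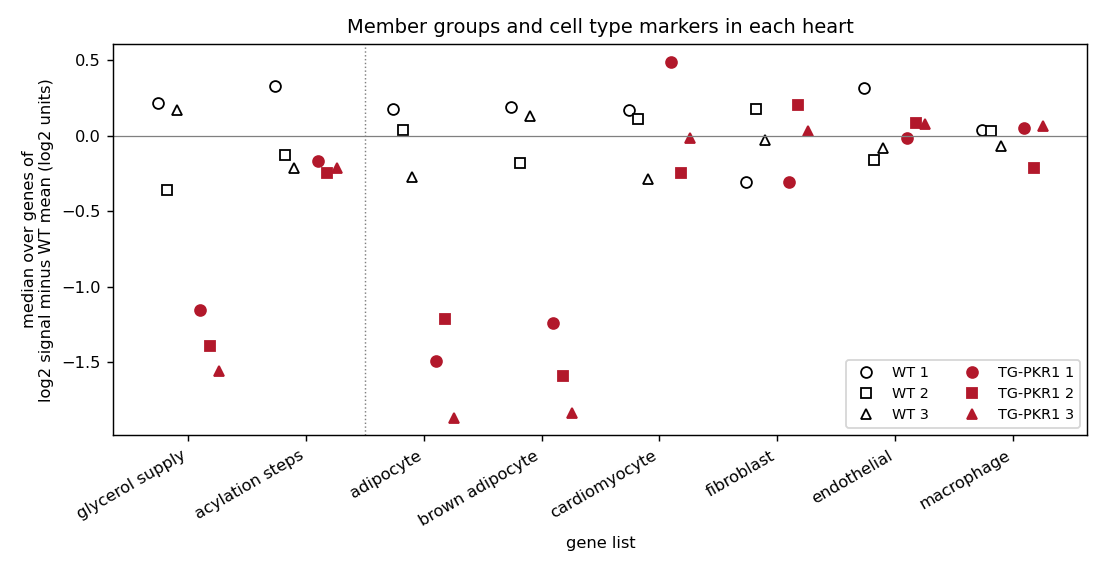
Each point is 1 heart, as the median over the genes of a list of the log2 signal minus the WT mean of each gene (log2 units), with open symbols for WT and filled symbols for TG-PKR1. The supply genes and both adipocyte lists part the groups, and the acylation genes and the cardiomyocyte, fibroblast, endothelial and macrophage lists overlap.

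The genes whose profile over the 6 hearts was most like that of Gpd1, by the root mean square difference of centred values among 18790 probes well above background on all arrays, were Tmem45b (0.12), Adipoq (0.18), Slc25a1 (0.23), H2-Q10 (0.24) and Tkt (0.25). Adipoq encodes adiponectin, a hormone made by adipocytes. Slc25a1 is the mitochondrial citrate carrier and Tkt is transketolase of the pentose phosphate pathway. Tmem45b read 9.30, 8.62 and 9.0 in WT hearts and 7.58, 7.09 and 6.77 in TG-PKR1 hearts, in the same order of hearts as Gpd1 within each group. For Gpam the nearest genes were Pcbp2 (0.02), Itprid2 (0.02), Vps13c (0.02), Taf1c (0.02) and Nudt16 (0.03). For Dgat2 they were Cpt2 (0.07), Rpl7a (0.08), Ifngr1 (0.09), Selenop (0.09) and Atp5o (0.09). The measure includes the difference between the groups, so genes with a like difference lie near each other by construction.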

How the data were processed

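The files the authors deposited hold, per spot and array, fluorescence intensity from Agilent Feature Extraction 9.5.1.1 (per the file headers), not normalized between arrays. The authors also deposited log2 values, to which LOWESS, averaging of repeated probes and a brightness filter had been applied, and these served as an alternative. Here the median signal was used without background subtraction. Control spots (leaving 43379 spots for 41174 probes) and outlier spots were dropped. Loess (span 0.3, 4 iterations) brought every array to the median profile of the 6 arrays, fitted along the mean of array and profile. Repeated spots were then averaged, and the 20000 probes of highest median entered the tests.

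Groups were compared over all 6 hearts by limma 3.58.1 in R 4.3.3 (data.table version 1.17.8), with Benjamini-Hochberg adjustment over all 20000 probes at 0.05, in place of the SAM test of the methods, and by two-sided exact permutation tests. The procedure was tested on simulated data. Figures used Python 3.11.15 and matplotlib 3.10.9. The mark for signal well above background is that of the scanner software. RefSeq accessions named 15334 of the 20000 probes, symbols 2189, and 2477 kept the name in the files. Positions are mm8 as in the files, and no annotation of that build was used here. The number of arrays and the brightness of each probe limit the precision.

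The members and all lists were chosen with earlier results of these data known. The lists were other glycerolipid genes in 7 steps and 8 sets of cell type markers, counted by the brightest probe of each gene. All member probes are named. Of each step, genes past the threshold are named, otherwise up to 4 with the largest difference well above background on at least 3 arrays, and for Gpd1, Gpam and Dgat2 the 5 nearest genes. Alternatives changed the signal (processed signal with 75th percentile scaling, normexp with offset 50 and quantile normalization, mean signal), the normalization (quantile, 75th percentile scaling, values of the authors), the probes (outlier spots kept, all probes, those well above background on at least 3 arrays), the model (trend and robust eBayes, scan mode as a block or within each mode, a threshold of 0.1) and the hearts, each left out in turn. Loess along the median profile alone and the difference within the shared slide were added after seeing the data, as were the differences of listed genes without each heart.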

Additional observations from a re-analysis of the deposited data

How the results depend on the processing

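No paired analysis was possible because no label ties a WT mouse to a TG-PKR1 mouse. Slide as a random block was not run to a value, since only 1 of the 5 slides carries more than 1 array and the correlation could not be estimated. Depth limits the dim probes, above all on WT 2.

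Over the 18 alternatives that used both scan modes, the supply median stayed between -1.72 and -1.14 and the acylation median between -0.38 and -0.0082. Without WT 2 they were -1.72 and -0.0082, and without WT 1 the acylation median was -0.090. The differences within 1 scan mode or slide, given above by probe, are not among these 18 and varied more widely. The number of member genes past the threshold (1, Gpd1) was 0 with 75th percentile scaling, the table of the authors, all probes, probes well above background on 3 arrays, scan mode as a block and loess along the median profile, and 0 to 2 when 1 heart was left out. The adjusted p of the bright Gpd1 probe by limma ranged from 0.0149 to 0.490 and was under 0.05 in 7 of 18 alternatives. The 19 probes lower over the whole array became 37 with quantile normalization, 31 with trend and robust eBayes, 2 with loess along the median profile and 0 with 75th percentile scaling, the table of the authors, all probes, probes well above background on 3 arrays or scan mode as a block. They numbered 0 to 19 when 1 heart was left out. The number of higher probes and of listed pathway genes past the threshold was 0 in all 18.

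The sign of some acylation probes turned. Within the single-scan arrays the Dgat1 probes (0.065 and 0.084), the second Agpat2 probe (0.0062), Dgat2 A_51_P396003 (0.68) and Lpin1 A_52_P483104 (0.21) turned to above 0. Within the extended range Gpam (-0.27), Dgat2 A_52_P359739 (-0.66) and Lpin1 (-0.21, -0.032 and -0.071 for the remaining probes) turned to below 0. With the processed signal Lpin1 gave -0.036 (A_52_P483101) and 0.0072 (A_52_P483104). With 75th percentile scaling Gpam gave -0.18, Lpin1 0.12 (A_52_P483104) and Dgat2 0.062 (A_51_P396003). With scan mode as a block Gpam gave -0.032 and Lpin1 0.030 (A_52_P483104). When 1 heart was left out, Gpam ranged from -0.048 to 0.22, Lpin1 from -0.090 to 0.26 (A_51_P394984), -0.058 to 0.15 (A_52_P483101), -0.16 to 0.12 (A_52_P483104) and -0.075 to 0.21 (A_52_P483105), and Dgat2 from -0.38 to 0.014 (A_52_P592909), -0.31 to 0.21 (A_51_P396003) and -0.070 to 0.52 (A_52_P359739). Dgat2 minus Dgat1 ranged from -0.23 to 0.46. The cause of these shifts was not tested.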

Other observations

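The water and glycerol channel Aqp3, chosen after its values were seen and not among the 20000 probes, read 6.08, 5.95 and 6.07 in WT hearts and 5.95, 7.31 and 5.92 in TG-PKR1 hearts, with 1 of 6 arrays well above background. TG-PKR1 2 alone stood apart, by more than 1 log2 unit. The related channel Aqp9 was well above background on 0 arrays.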
